A study of Mus musculus with 6 samples.

Results

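Expression in the migratory line I1 was set against that of its parent, BL185, on Affymetrix mouse arrays. BL185 is a mouse hepatocellular carcinoma cell line, and I1 is a subpopulation of it that had been selected for migration and is titled a subclone line. The arrays were chosen by the line named in their titles: 2 of I1 and 2 of BL185, which make 4 of the 6 arrays of the series. The remaining arrays belong to a different selected line and entered only as an alternative. The labels name no genotype, agent or further treatment for either line. Culture medium with serum was the same for both, and total RNA was isolated with Trizol and labelled with a 3′ IVT kit. No unselected subclone was measured, so selection for migration and passage through a subclone cannot be told apart. Separate cultures are not recorded for the arrays of a line, and every p-value therefore reflects array-to-array spread alone, which may be technical.

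As background, dividing cells first switch on genes for DNA replication, many of them bound by E2F transcription factors, and later a mitotic set whose promoters often carry a short element called the cell cycle genes homology region. The integrated stress response is a second programme: kinases that sense amino acid shortage or unfolded protein slow translation and raise the transcription factor ATF4, which acts on amino acid, tRNA charging and stress genes through the C/EBP-ATF response element. Carcinoma cells that migrate are known to remodel their cytoskeleton, their contacts with other cells and the matrix around them. Hepatocellular carcinoma arises from hepatocytes, and its cell lines keep some liver transcription factors while many lose the products of the mature liver cell.

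The values are log2 signals, so a difference of 1 is a 2-fold difference, and each gene stands for the brightest of the probe sets that name it alone. The deposited values spread less on the I1 arrays (SD 1.83 and 1.88 over all probe sets) than on the BL185 arrays (1.97 and 1.95), and were therefore brought together by cyclic loess over these 4 arrays before limma was applied. Across probe sets, which are not independent replicates, arrays of a line correlated at r = 0.997 (BL185) and 0.994 (I1), and arrays of different lines at 0.957 to 0.962. A robust SD between arrays of a line, taken from the median absolute difference over genes, was 0.091 log2 units in BL185 and 0.124 in I1. It leaves out the genes whose arrays differ most. Array medians lay between 7.87 and 7.94, and a signal near or below them cannot be told from background, so the size of a change that starts or ends there is not exact. The gap between 3′ and 5′ probe sets of Actb, which widens as RNA degrades, was 1.08 and 0.88 in BL185 and 1.47 and 1.43 in I1, and the 3′ probe set of 18S ribosomal RNA read 10.11 and 10.14 against 11.27 and 11.51. These controls moved with the line in every array, and their part in the gene differences was not tested.

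A gene is called here where limma's Benjamini-Hochberg adjusted p over all genes is under 0.05 and the change is at least 1 log2 unit. Of 18193 genes, 616 were called higher in I1 (3.39%) and 713 lower (3.92%), which is 7.31% in either direction. Among the 8711 genes with a mean of at least 9, well above the array medians, the shares were 6.02% and 5.84%. In all 1329 called genes the I1 arrays did not overlap the BL185 arrays. With 2 arrays per line the call rule makes this nearly certain, so it adds no support to a call. Genes without a call, such as Alb and Cdh1, also showed no overlap. Rises made up 46.4% of the calls after loess, but 29.7% with the values as deposited, 25.3% with median centring and 31.2% with every probe set tested alone. The change of the median gene was 0.05 after loess and 0.06 as deposited, while genes with a mean of at least 9 had a median of 0.02 after loess and -0.18 as deposited. Large changes were few: 106 rises and 70 falls were at least 4-fold, and 17 and 12 at least 8-fold.

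**Figure D1:**
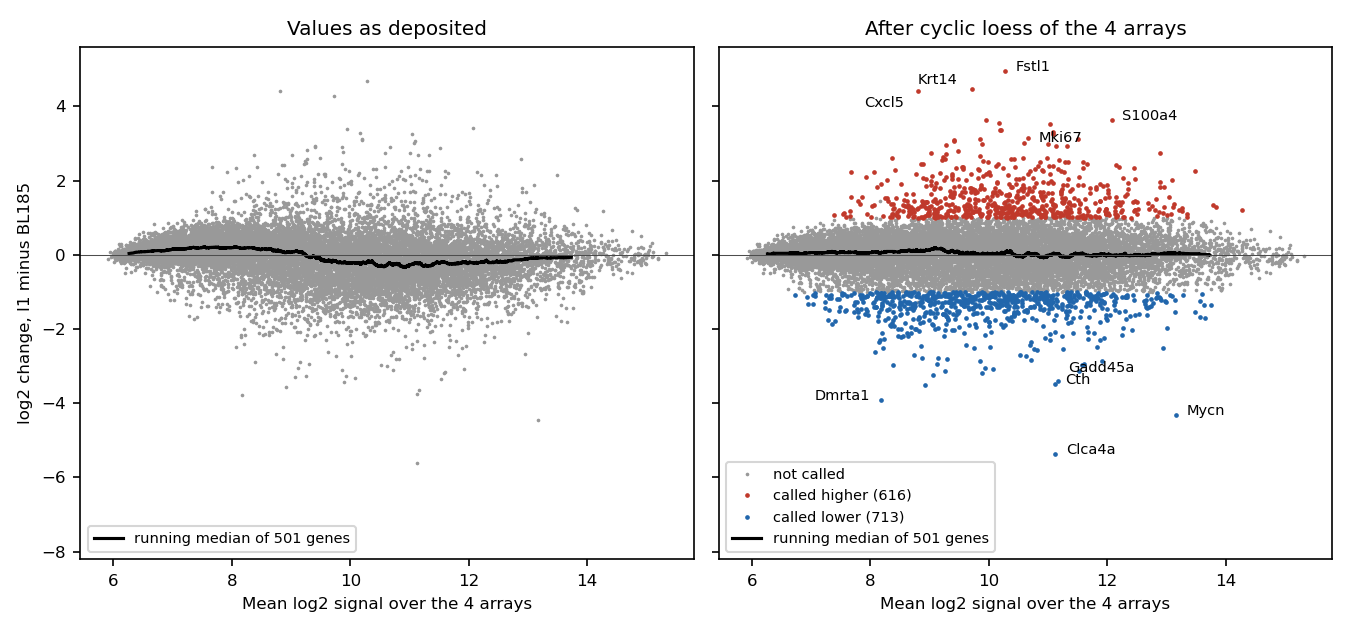
Log2 change of each of 18193 genes (I1 minus BL185, vertical axis) against its mean log2 signal over the 4 arrays (horizontal axis), for the deposited values on the left and after cyclic loess on the right. Grey points are genes, or genes not called, red points the 616 called higher, blue points the 713 called lower, and the black line is a running median over neighbouring genes, which departs from 0 with signal level on the left and stays near 0 on the right.

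The line's identity was checked on marker genes. Hnf4a, the transcription factor that defines hepatocyte identity, was high throughout, at 12.75 and 12.84 in BL185 and 13.16 and 13.32 in I1 (0.45 ± 0.10, SE, n = 2 per line; not called). Alb, which encodes the main plasma protein of the liver, read only 7.70 and 7.56 in BL185 and a mean of 8.02 in I1, and the fetal liver and tumour marker Afp read 7.49 and 7.17 against 7.80 and 7.92. Both genes thus stood near background in both lines. Of 24 hepatocyte markers, 3 had a mean of at least 9: Hnf4a, the retinol and thyroid hormone carrier Ttr (named after its values were seen) and the haem-binding plasma protein Hpx. The simple epithelial keratins Krt8, Krt18 and Krt19 were among the brightest genes, with I1 minus BL185 values of 0.19, 0.00 and 0.03. Of 12 stellate cell and fibroblast markers, 1 had such a mean, the smooth muscle actin Acta2, and of 9 endothelial and 2 erythroid markers 0 had. Of 11 macrophage and leukocyte markers, 3 had such a mean (Cd14, Cd68 and Csf1r), and the pan-leukocyte marker Ptprc was at background (6.27 and 6.64 as means of BL185 and I1, with an opposed probe set). Cd68, a lysosomal glycoprotein typical of macrophages, read 10.68 and 10.51 in BL185 and 7.88 and 7.42 in I1, a called fall of 2.95 that is among the 20 largest. The leukocyte tetraspanin Cd53 also fell (-1.42, with another probe set at -0.18). The endotoxin co-receptor Cd14 rose, from 11.05 and 11.13 to 12.01 and 12.18, a call lost without BL185 replicate 1 (0.96) or I1 replicate 2 (0.91). The list held 1 rise and 2 falls, with 7 of 11 values positive and a median of 0.37.

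The largest single rise was in Fstl1, whose secreted product belongs to the follistatin family. It read 7.92 and 7.68 in BL185 and 12.66 and 12.83 in I1, a change of 4.94 ± 0.11 (SE, n = 2 per line; adjusted p = 2.3e-06). The parent's values lie at background, and only the I1 arrays carry a clear signal. Krt14, a keratin of basal cells in stratified epithelium, followed with 7.46 and 7.50 against 12.04 and 11.88 (4.48 ± 0.09; adjusted p = 1.72e-06). The neutrophil-attracting chemokine Cxcl5 read 6.65 and 6.55 against 10.80 and 11.24 (4.42 ± 0.15; adjusted p = 5.1e-06). In both, the parent arrays again stood below the array medians and the I1 arrays well above them. Gxylt2, an enzyme that extends sugar chains on Notch-type receptors, rose by 3.64, S100a4, a calcium-binding protein much used as a marker of motile and mesenchymal cells, by 3.62, and the semaphorin and VEGF co-receptor Nrp1 by 3.13. Others among the 20 largest rises were the keratin Krt79 (3.37), the pantetheinase Vnn1 (3.11), the mast cell protease Mcpt1 (3.10), the calcium-binding S100g (3.07), the cytochrome P450 Cyp1b1 (3.01) and the monocyte attractant Ccl2 (2.95). D17H6S56E-5 rose by 2.99. The rest were genes of the dividing cell, the microtubule gene Stmn2 (3.32) and the collagen gene Col6a2 (3.52), which are taken up with their groups.

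**Figure D2:**
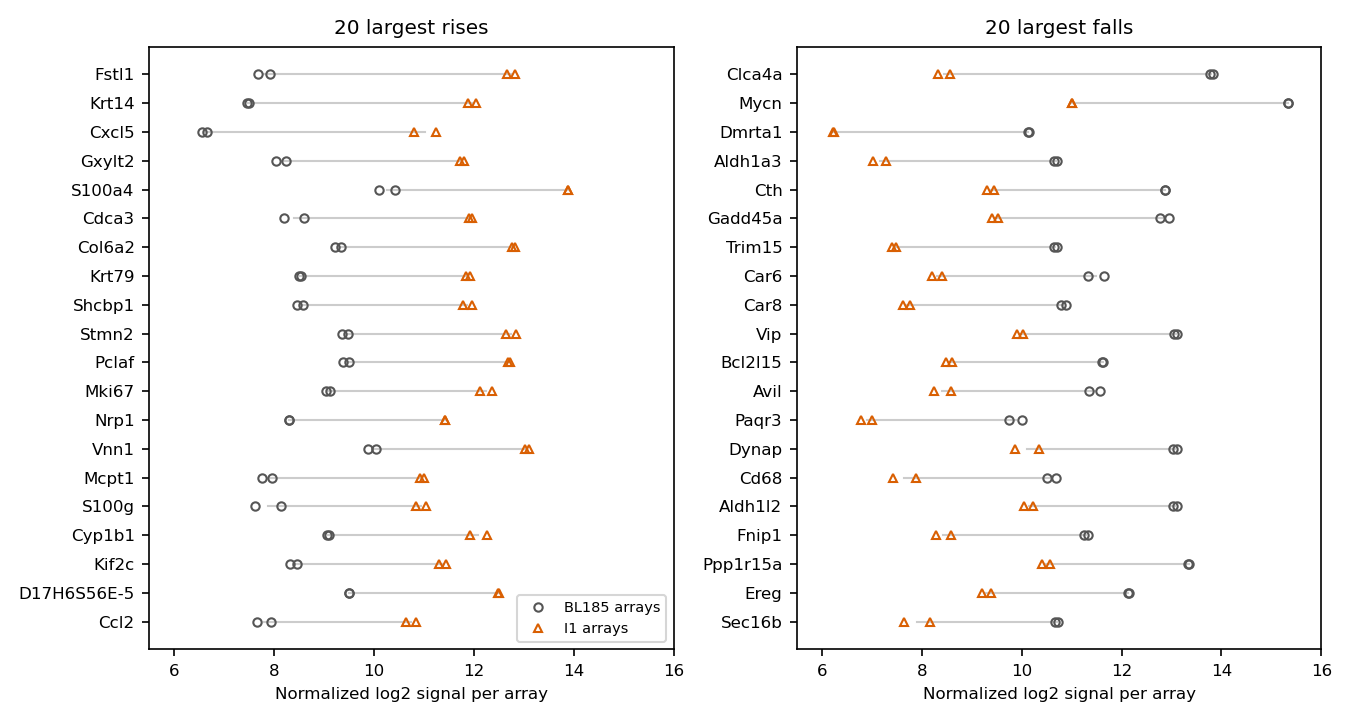
Normalized log2 signal on each of the 4 arrays (horizontal axis) for the 20 largest rises and the 20 largest falls among called genes whose higher mean was at least 9; circles are BL185 arrays, triangles I1 arrays, and grey lines join the means of the lines. Genes were chosen for a large change without overlap, so the wide gap between the lines follows from the choice, as in Fstl1 (7.92 and 7.68 against 12.66 and 12.83) and Clca4a (13.77 and 13.84 against 8.33 and 8.56).

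The largest fall was in Clca4a, of the calcium-activated chloride channel regulator family, which read 13.77 and 13.84 in BL185 and 8.33 and 8.56 in I1 (-5.36 ± 0.10, SE, n = 2 per line; adjusted p = 1.7e-06). Mycn, a MYC family transcription factor, stood at 15.33 on both BL185 arrays, near the top of the scale, and at a mean of 11.01 in I1, whose arrays differed by under 0.05 (-4.32 ± 0.08; adjusted p = 1.7e-06). Its other probe sets did not show the fall (changes of -0.23 to 0.51, the latter opposed at an unadjusted p under 0.05). Dmrta1, a DM domain factor, read 10.15 and 10.12 in BL185 and was at background in I1, at 6.22 and 6.24 (-3.91). The retinaldehyde dehydrogenase Aldh1a3 did likewise, with 10.71 and 10.64 against 7.03 and 7.29 (-3.52). Other probe sets of Aldh1a3 fell far less (changes of -0.69 to -0.34). The remaining large falls included the carbonic anhydrase genes Car6 (-3.18) and Car8 (-3.14), the neuropeptide Vip (-3.12), the BCL2 family member Bcl2l15 (-3.07), the actin-binding villin relative Avil (-3.05), the EGF receptor ligand Ereg (-2.84) and the mitochondrial folate enzyme Aldh1l2 (-2.93). Paqr3 (-2.98), Dynap (-2.96), the ubiquitin ligase family gene Trim15 (-3.23) and Sec16b, of the ER exit sites (-2.80), were also among the 20 largest falls, with Cd68 and the stress genes described further on. Fnip1, which partners folliculin in nutrient sensing, fell by 2.87. Other probe sets of Car8 had changes of only -0.43 to -0.27.

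Genes of mitosis were the list with most calls. Of 73 measured, 62 were higher in I1 and 0 lower, against 3.39% and 3.92% of all genes, and the median change was 1.79 (all genes 0.05). The medians over the separate pairings of an I1 with a BL185 array ran from 1.69 to 1.79. All 15 mitotic cyclins and kinases were called, as were 27 of 32 kinetochore and spindle genes, 11 of 13 genes of mitotic exit and cytokinesis and 9 of 13 markers and regulators. Mki67, the standard marker of proliferating cells, read 9.13 and 9.04 in BL185 and 12.12 and 12.37 in I1 (3.16 ± 0.11, SE, n = 2 per line; adjusted p = 5.43e-06), which is 8.93-fold. Cdca3, which triggers mitotic entry, read 8.20 and 8.61 against 11.91 and 11.97 (3.54 ± 0.14; adjusted p = 7.34e-06). Its other probe sets did not show the rise (changes of 0.08 to 0.18). Kif2c, a kinesin that takes microtubules apart at kinetochores, read 8.46 and 8.32 against 11.31 and 11.45 (2.99 ± 0.10; adjusted p = 5.1e-06). The I1 arrays of these genes were all at least 2 units above the parent's, whose signals were low but, for Mki67, above 9. Birc5, of the chromosomal passenger complex, rose by 2.93, the kinase Melk by 2.79 and the cyclin Ccnb2 by 2.61. The 11 members without a call had values from -0.18 (Lin9, of the MuvB complex) to 0.97 (Cenpn, of the centromere), among them the mitotic transcription factor Foxm1 (9.50 and 10.36 as means; 0.86), all 3 named after their values were seen. The count was 59 with the values as deposited, 58 with median centring and 44 when probe sets of a gene were averaged.

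A mitotic promoter is shown because promoters of this group are known to hold a short element, as described above. In RefSeq promoters on GRCm38.p6, the 250 bases before the gene's start were searched on both strands for TTTGAA, the cell cycle genes homology region. It was present in 24 of 65 promoters of the mitosis list (36.9%) and in 11.9% of all 18009 promoters of genes tested. With the 50 bases after the start included, an alternative added after the data were seen, the shares were 66.2% and 13.4%. CCAAT, the NF-Y box, was in 66.2% of the mitotic promoters and 34.8% of all, and in 59.5%, 55.6% and 64.3% of those of the DNA replication, integrated stress response and cholesterol lists. The Mki67 promoter (chr7:135716380-135716629, minus strand) holds 2 matches, here in capitals.
Mki67: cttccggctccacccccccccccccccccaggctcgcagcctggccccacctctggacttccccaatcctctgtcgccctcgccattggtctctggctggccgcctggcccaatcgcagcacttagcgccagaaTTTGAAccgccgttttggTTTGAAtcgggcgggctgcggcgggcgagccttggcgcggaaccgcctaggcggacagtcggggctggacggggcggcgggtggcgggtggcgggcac
A match describes the letters of the window and is no evidence of binding in these cells.

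DNA replication genes rose as well. Of 40 measured, 20 were higher and 0 lower, with a median change of 0.99. Licensing of replication origins, the step that loads the MCM helicase, gave 8 calls among 12 genes (median 1.15), and the fork and its polymerases 12 among 28 (0.94). Mcm5, a subunit of that helicase, read 10.07 and 10.10 on the BL185 arrays and 12.58 on both I1 arrays (2.49 ± 0.08, SE, n = 2 per line; adjusted p = 5.1e-06). Pclaf, a partner of the sliding clamp PCNA, read 9.51 and 9.39 against 12.73 and 12.69 (3.26 ± 0.09; adjusted p = 3.52e-06). In both genes the arrays of a line lay close together and the lines far apart. The DNA ligase Lig1 rose by 1.88, the GINS subunits Gins1 and Gins2 by 1.83 and 1.81 and the licensing inhibitor Gmnn by 1.72. The clamp Pcna itself was bright in BL185 and had a change of 0.45, and the helicase subunit Mcm2 of 0.24, both without a call and named here after their values were seen. The count fell to 13 with the values as deposited and 12 with median centring, and the median to 0.80 and 0.75. E2F core sites (TTGGCGC, or the variant TTCCCGC, the variant TTCGCGC or the variant TTGCCGC, on either strand) were in 15 of 37 promoters of the list (40.5%) and 11.2% of all promoters. With the 50 bases after the start included, the shares were 67.6% and 13.7%. Upstream E2F core sites were also in 28.6% of promoters of the cholesterol list, 14.8% of the integrated stress response list and 13.8% of the mitosis list. The Mcm5 promoter (chr8:75109259-75109508, plus strand, GRCm38.p6) holds 3 such matches, in capitals, of which a pair overlaps.
Mcm5: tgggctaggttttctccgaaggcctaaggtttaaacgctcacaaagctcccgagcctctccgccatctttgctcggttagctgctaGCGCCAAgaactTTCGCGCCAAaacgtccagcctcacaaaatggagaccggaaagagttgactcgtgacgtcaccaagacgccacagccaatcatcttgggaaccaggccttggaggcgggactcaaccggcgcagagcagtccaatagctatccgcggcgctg

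Neighbouring steps of the cell cycle gave fewer calls, to be read against 3.39% of all genes higher and 3.92% lower. Deoxynucleotide supply had 4 rises among 11 genes: the thymidine kinase Tk1 (9.68 and 9.66 against 12.66 and 12.56; 2.94), the ribonucleotide reductase subunits Rrm2 (2.01) and Rrm1 (1.87) and the deoxycytidine kinase Dck (1.61). Purine and folate synthesis had 0 rises and 1 fall among 10, in Pfas (-1.17). DNA repair had 8 rises and 0 falls among 38 genes (median 0.44), 6 of the 8 in homologous recombination and the Fanconi pathway, with Rad54l (1.89), Eme1 (1.31), Fanci (1.30) and Brca1 (1.27). Timeless, of the replication checkpoint, also rose. The count of repair rises was 2 when probe sets of a gene were averaged and 3 with all 6 arrays. Other probe sets of Brca1 had changes of only -0.17 to 0.40. Among chromatin proteins 6 of 22 rose, led by the maintenance methylation factor Uhrf1 (2.14), the chromatin protein Hmgb2 (2.07) and the histone chaperone Asf1b (1.73), while the architectural factor Hmga2 fell (-1.27).

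Of 29 genes that control entry into the cycle, 4 rose and 0 fell, which is 13.8% higher against 3.39% of all genes. The 9 cyclins and kinases that act in G1 gave 0 calls. The 4 rises were in the CDK4/6 inhibitors Cdkn2c (10.00 and 9.89 against 12.10 and 12.12; 2.17 ± 0.09, SE, n = 2 per line; adjusted p = 8.19e-06) and Cdkn2d (1.47), and the repressive E2F family members E2f7 (1.35) and E2f8 (1.29). As for every called gene, arrays of the lines did not overlap in these. The inhibitor Cdkn1a, a p53 target, read 12.44 and 12.39 in BL185 and 12.58 and 12.39 in I1, so the lines overlapped (0.07). Cdkn2a, the locus of p16 and p19Arf, read 10.03 and 11.13 in BL185 and 9.94 and 10.00 in I1, and the parent's arrays differed from each other more than the lines did (-0.61; adjusted p = 0.15). The list's median of 0.25 turned to -0.04 with median centring.

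Genes of the integrated stress response were lower in I1. Of 27 genes measured, 15 fell (55.6%, against 3.92% of all genes) and 0 rose. The median change was -1.03, and the medians of the separate array pairings ran from -1.08 to -0.96. Sensors of the pathway had 0 calls among 4, its transcription factors and regulators 7 among 10 and its targets 8 among 13. Ppp1r15a, the stress-induced subunit that restores translation, read 13.36 and 13.34 in BL185 and 10.57 and 10.41 in I1 (-2.86 ± 0.09, SE, n = 2 per line; adjusted p = 5.1e-06). Ddit3, the factor CHOP, read 13.11 and 13.03 against 10.89 and 10.78 (-2.24 ± 0.09; adjusted p = 8.19e-06). Its other probe set did not show the fall (0.10). Atf3 read 12.85 and 12.89 against 11.09 and 11.15 (-1.75 ± 0.09; adjusted p = 1.58e-05). All stayed well above background in I1, so their signal was reduced and not lost. Trib3, an inhibitor of ATF4 and AKT, fell by 1.96, and the target Asns, asparagine synthetase, from a mean of 14.44 to one of 13.09 (-1.35). Atf4 itself, whose product is raised mainly through translation, read 14.23 and 14.21 against 13.26 and 13.33 and missed the fold rule (-0.92; adjusted p = 0.000201), with another probe set opposed. Stc2, a secreted glycoprotein, fell by 1.47 with 1 probe set opposed. The count of falls was 18 with the values as deposited and between 13 and 16 when an array was left out.

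The C/EBP-ATF response element was searched as TGATGNAA on both strands of the same upstream windows, since it is the element through which ATF4 is known to act. It was present in 8 of 27 promoters of the integrated stress response list (29.6%) and in 2.4% of all promoters. It was also in 4 of 28 promoters of the cholesterol list (14.3%), which had 7 rises and 0 falls. The shares were 3.1% in the mitosis list and 2.7% in the DNA replication list. It was in 30 of 713 promoters (4.2%) that belong to 574 of the genes called lower, and in 12 of 606 promoters (2.0%) of 492 genes called higher. The Atf3 promoter (chr1:191183334-191183583, minus strand, GRCm38.p6) and the Asns promoter (chr6:7693210-7693459, minus strand) each hold 1 match, in capitals.
Atf3: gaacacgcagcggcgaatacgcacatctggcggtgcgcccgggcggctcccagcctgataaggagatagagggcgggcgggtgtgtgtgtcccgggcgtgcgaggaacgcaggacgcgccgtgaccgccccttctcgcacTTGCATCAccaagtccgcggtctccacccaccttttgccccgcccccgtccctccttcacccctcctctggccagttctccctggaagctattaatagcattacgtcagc
Asns: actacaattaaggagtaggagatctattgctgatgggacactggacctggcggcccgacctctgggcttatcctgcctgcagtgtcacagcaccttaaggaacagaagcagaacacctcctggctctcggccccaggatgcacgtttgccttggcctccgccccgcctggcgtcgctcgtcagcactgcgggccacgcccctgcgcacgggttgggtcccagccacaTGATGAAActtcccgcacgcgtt
These are RefSeq sequences of the reference strain, not of the cells measured.

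Of 27 genes of amino acid synthesis and transport, many of them known ATF4 targets, 10 fell and 0 rose (median -0.78). That is 37.0% lower, against 3.92% of all genes. Cth, which makes cysteine from cystathionine, read 12.87 and 12.86 in BL185 and 9.31 and 9.45 in I1 (-3.49 ± 0.09, SE, n = 2 per line; adjusted p = 3.31e-06), 11.2-fold lower. The cationic amino acid carrier Slc7a1 (-1.52), the alanine transaminase Gpt2 (-1.51), the serine enzyme Psph (-1.48) and the cystine carrier Slc7a11 (-1.31) fell less. Of 19 cytosolic aminoacyl-tRNA synthetases, 4 fell, among them Wars (-1.44) and Eprs (-1.12), and 17 had a negative value (median -0.67). With the values as deposited or median centring, 8 of them passed. Cars and Sars (-1.08) lost their call when an array was left out, Cars without BL185 replicate 2 or I1 replicate 1 and Sars without I1 replicate 2. The other probe set of Cars had a change of -0.13. The ER stress sensors Atf6 (12.12 and 12.09 against 10.04 and 9.90; -2.14) and Ern1 (-1.36, with 1 probe set opposed) fell, as did the co-chaperone Dnajb9 and the oxidase Ero1a (-1.25). The remaining 26 of 30 ER chaperone and degradation genes had no call. The list's median was 0.01 and turned negative with the values as deposited (-0.13) and median centring (-0.18). The main ER chaperone Hspa5 read 14.66 and 14.68 against 14.13 and 14.25 (-0.48, not called, with 1 probe set opposed).

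Gadd45a, a growth arrest and DNA damage gene that responds to p53 and to ATF4, read 12.77 and 12.94 in BL185 and 9.41 and 9.53 in I1 (-3.39 ± 0.10, SE, n = 2 per line; adjusted p = 4.14e-06). Among 28 genes of the p53 pathway, 5 fell (17.9%) and 1 rose (3.6%), against 3.92% and 3.39% of all genes. A mean of at least 9 was reached by 24 of the 28, and of all genes at that level 5.84% fell. Beside Gadd45a the falls were in Trp53inp1 (-1.93), the RNA-binding Zmat3 (-1.28), the kinase Plk3 (-1.20) and the BH3-only gene Pmaip1 (-1.19), and the rise was in the AKT inhibitor Phlda3 (1.53). Falls numbered 9 with the values as deposited and 10 with median centring. Trp53 was not analysed here.

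In the MYC network 3 of 13 genes fell (23.1%) and 1 rose (7.7%), against 3.92% and 3.39% of all genes. The list had 11 negative values and a median of -0.54. After Mycn the falls were in Myc, which read 13.09 and 13.34 in BL185 and 11.36 and 11.78 in I1 (-1.65 ± 0.15, SE, n = 2 per line; adjusted p = 0.000199), and in the MAX partner Mga (-1.31). The repressor Mxd3 had a change of 1.04 that lost its call without BL185 replicate 2 or I1 replicate 1. Ribosome biogenesis, which MYC proteins are known to drive, had 33 negative values among 40 nucleolar genes (median -0.43) and 3 falls, in Nop58 (-1.46), Ddx21 (-1.16) and Gnl3 (-1.14). All 40 had a mean of at least 9, and of all genes at that level 5.84% were called lower. With 7.5% of its genes called lower, the ribosome biogenesis list was near that rate, unlike the stress list (55.6%). Subunits of the proteasome served as a comparison of bright genes: 0 of 31 were called, and their median was 0.16.

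**Figure D3:**
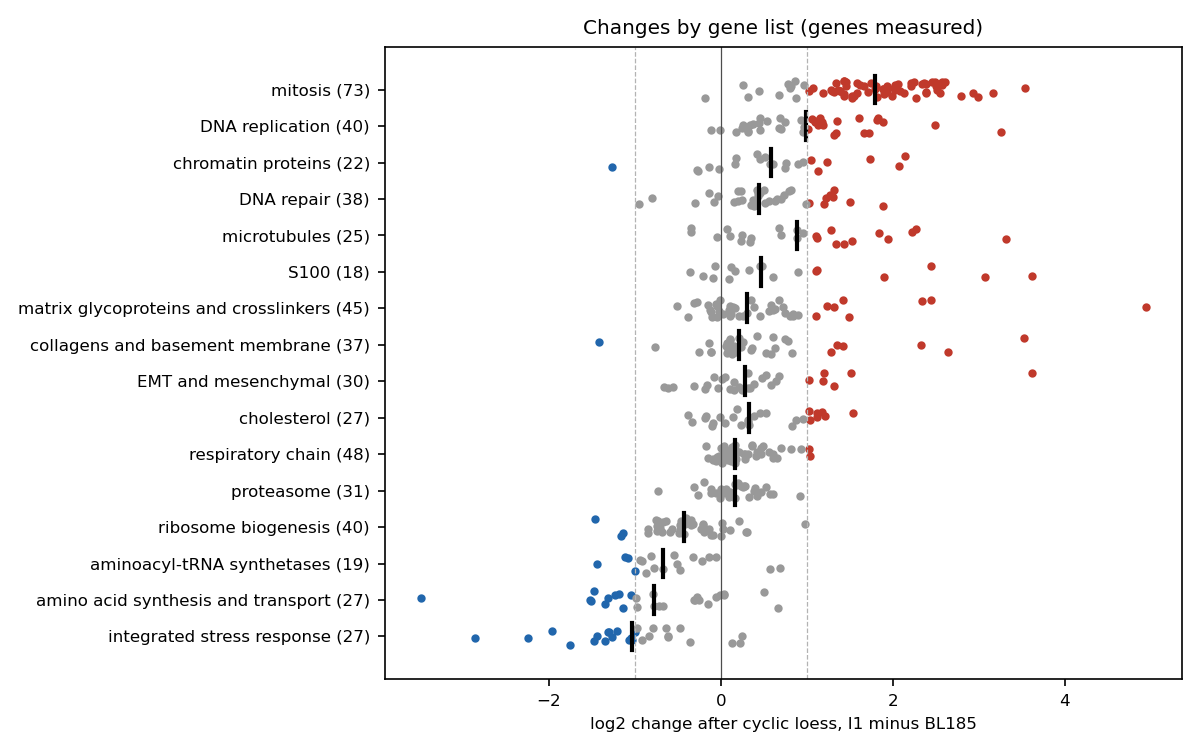
Log2 change (I1 minus BL185, horizontal axis) of every measured gene of 16 lists, with the number measured in brackets; red points are called higher, blue points called lower, grey points not called, black bars mark the list medians and dashed lines a change of 1 in either direction. The mitosis list lies almost wholly to the right (median 1.79) and the integrated stress response to the left (median -1.03), while the proteasome stays near 0 (median 0.16).

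Of 25 stathmins, tubulins and neuronal microtubule proteins, 11 were higher (44.0%, against 3.39% of all genes) and 0 lower, with a median of 0.88. Stmn2, a stathmin of growing neurites that destabilises microtubules, read 9.49 and 9.36 in BL185 and 12.65 and 12.84 in I1 (3.32 ± 0.10, SE, n = 2 per line; adjusted p = 4.49e-06). Tuba1a, an alpha-tubulin gene, was bright in the parent at 12.44 and 12.27 and reached 14.65 and 14.59 (2.27 ± 0.10; adjusted p = 9.26e-06). Map2, a microtubule-binding protein of dendrites, went from background at 7.10 and 6.81 to 9.36 and 8.98 (2.22 ± 0.15; adjusted p = 5.37e-05). As for every called gene, their arrays did not overlap between the lines. The beta-tubulins Tubb2a (1.94), Tubb4b (1.84, with 1 probe set opposed) and Tubb2b (1.52) rose too. The count was 7 when probe sets of a gene were averaged.

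Actin and motility genes moved in both directions. Of 93, 10 rose (10.8%) and 5 fell (5.4%), against 3.39% and 3.92% of all genes, with a median of 0.17. A mean of at least 9 was reached by 81 of the 93. Of all genes at that level 6.02% rose and 5.84% fell, so the falls were near the general rate. Among actin-binding and myosin genes, Gsn, the severing protein gelsolin, read 10.50 and 10.44 in BL185 and 12.60 and 12.56 in I1 (2.11 ± 0.09, SE, n = 2 per line; adjusted p = 8.19e-06), and the scaffold Iqgap2 (2.05) and the non-muscle myosin Myh10 (1.66) rose. Capg, a capping relative of gelsolin, fell from 12.93 and 12.78 to 11.28 and 11.20 (-1.61). Of 29 GTPases and regulators, 1 rose and 3 fell, with the RHOA activator Arhgef2 lowest (-1.57). Wasl (-1.10), an activator of branched actin, lost its call without BL185 replicate 2 or I1 replicate 1.

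**Figure D4:**
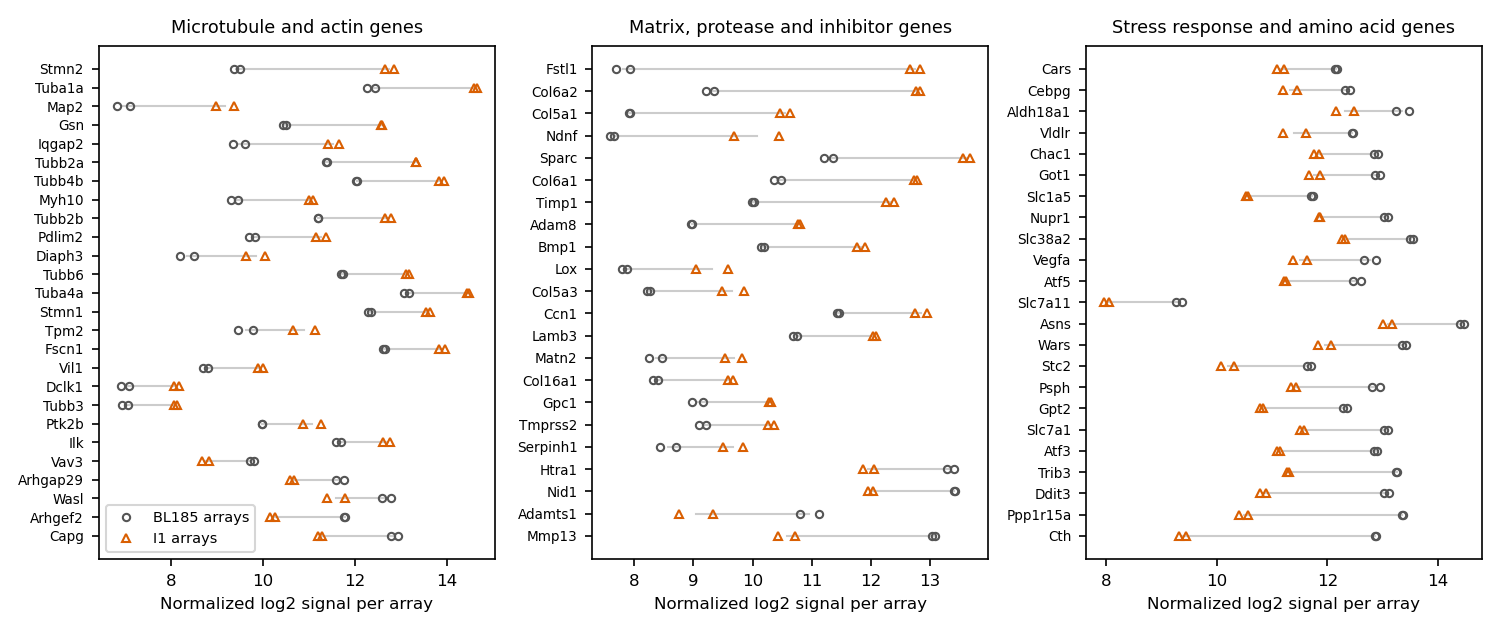
Normalized log2 signal on each of the 4 arrays (horizontal axis) for called genes of the microtubule and actin lists (left), the matrix and protease lists (middle) and the stress response and amino acid lists (right); circles are BL185 arrays, triangles I1 arrays, and grey lines join the means of the lines. Stress response and amino acid genes shown all lie lower in I1, as in Cth (12.87 and 12.86 against 9.31 and 9.45), while matrix genes lie mostly higher and include falls such as Mmp13 (13.04 and 13.10 against 10.44 and 10.72).

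Matrix genes were higher in a subset. Of 24 collagens, 5 rose (20.8%) and 0 fell, against 3.39% and 3.92% of all genes. Col6a2, a chain of the microfibrillar collagen VI, read 9.35 and 9.22 in BL185 and 12.83 and 12.77 in I1 (3.52 ± 0.09, SE, n = 2 per line; adjusted p = 3.31e-06). Its partner chain Col6a1 read 10.48 and 10.37 against 12.79 and 12.73 (2.33 ± 0.09; adjusted p = 7.03e-06). The fibril-initiating Col5a1 rose from background, at 7.92 and 7.90, to 10.46 and 10.64 (2.64). The collagen VI chain Col6a3 was at background in both lines (means 7.57 and 7.67, named after its values were seen), as were the fibroblast collagens Col1a1 and Col3a1. Of 33 matrix glycoproteins and proteoglycans, 6 rose, with Sparc, a collagen-binding matricellular protein, from 11.21 and 11.36 to 13.69 and 13.56 (2.34), the secreted Ndnf (2.44) and the matricellular Ccn1 (1.42). The crosslinking oxidase Lox rose by 1.49 and the laminin chain Lamb3 by 1.35. Nid1, nidogen of the basement membrane, fell from 13.43 and 13.41 to 12.04 and 11.96 (-1.42). Fibronectin, Fn1, which was bright, had a value of -0.31.

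Proteases and their inhibitors were split. Mmp13, a collagenase, read 13.04 and 13.10 in BL185 and 10.44 and 10.72 in I1 (-2.49 ± 0.11, SE, n = 2 per line; adjusted p = 1.21e-05), and Adamts1 (-1.93) and the secreted serine protease Htra1 (-1.40) fell. Timp1, an inhibitor of metalloproteinases, read 10.02 and 9.99 against 12.39 and 12.26 (2.32 ± 0.09; adjusted p = 7.35e-06). Adam8 (1.82) and the procollagen protease Bmp1 (1.67, with other probe sets at 0.12 to 0.29) rose. Of 44 genes in all, 4 were higher (9.1%) and 3 lower (6.8%), against 3.39% and 3.92% of all genes.

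Of 30 mesenchymal genes 6 rose and 0 fell, and of 44 junction and polarity genes 6 rose and 1 fell. The adherens junction gene Cdh1 read 13.01 and 12.98 in BL185 and 13.45 and 13.48 in I1 (0.47, not called). Cdh2, the N-cadherin gene, rose from 10.66 and 10.40 to 12.04 and 12.03 (1.51 ± 0.11, SE, n = 2 per line; adjusted p = 6.72e-05). The mesenchymal filament gene Vim was bright in both lines, at 14.73 and 14.82 against 14.92 and 14.93 (0.15). Epcam had a value of 0.67 without a call and another probe set at -0.62. S100a4, at 10.43 and 10.10 against 13.89 on both I1 arrays, had the largest change of the mesenchymal genes. The transcription factor Twist2 rose by 1.19, a call lost with median centring, and Snai1 by 1.02, with I1 arrays at 9.26 and 8.41. The Snai1 call was lost without BL185 replicate 2 or I1 replicate 1, and the list's 6 rises were 3 with median centring. Among junction genes the plakin Ppl (1.61) and the junction protein Jup (1.23) were higher and the claudin Cldn23 lower (-1.52). Among S100 proteins and annexins 6 of 18 rose (33.3%) and 0 fell, led by S100a4, S100g and S100a13 (2.44). The hyaluronan receptor Cd44 (-0.02) and the HGF receptor Met (0.14, with another probe set at -1.01) had no call.

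Signalling genes showed calls in several families, mostly for ligands and inhibitors. In the TGF-beta and BMP list 8 of 51 rose (15.7%) and 1 fell (2.0%), against 3.39% and 3.92% of all genes. The BMP-induced inhibitors of differentiation Id3 (9.76 and 9.52 against 12.09 and 11.95; 2.38), Id2 (1.88, with 1 probe set opposed) and Id1 (1.76) rose, with the ligands Tgfb3 (2.03) and Bmp2 (1.96), while the receptor Acvr1 fell (-1.12). In the Wnt list 7 of 53 rose (13.2%) and 1 fell (1.9%). Wnt4 rose from a mean of 8.52 in BL185 to 11.22 and 11.16 in I1 (2.67 ± 0.09, SE, n = 2 per line; adjusted p = 5.06e-06), the ligand Wnt10a rose by 1.57, and the membrane inhibitor Apcdd1, a Wnt target, by 2.02. Wnt4 and Apcdd1 had parent means under 9, and all their I1 arrays lay above 9.

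Growth factor and cytokine genes fell about as often as they rose. Of 69 receptor kinases and ligands, 3 rose (4.3%) and 5 fell (7.2%), against 3.39% and 3.92% of all genes. At a mean of at least 9 the shares of all genes were 6.02% and 5.84%, and the counts of this list were near the general rate. The EGF receptor ligands Ereg (12.14 and 12.13 against 9.21 and 9.38; -2.84) and Btc (-1.48) fell with the MAPK phosphatase Dusp4 (-2.11), while Igf1 rose (9.34 and 9.17 against 11.51 and 11.74; 2.37). The receptor Egfr had a value of 0.39 without a call, with a probe set opposed at -0.84. Of 49 chemokines and cytokines, 6 rose (12.2%) and 3 fell (6.1%). Beside Cxcl5 and Ccl2, which read 7.93 and 7.66 against 10.64 and 10.85, the alarmin Il33 rose from 11.01 and 10.84 to 13.35 and 13.37 (2.43). Cxcl3 (1.55) and Cxcl12 (1.46) rose from background. Vip, at 13.11 and 13.05 in BL185, fell to 9.90 and 10.03, and the chemokine Ccl25 fell by 1.38. In the Notch list 2 of 28 rose (7.1%) and 3 fell (10.7%), the latter including the ligand Jag1 (-1.25), and 0 of 13 Hedgehog genes was called. The Hedgehog ligand Shh differed between the I1 arrays, at 11.30 and 9.55, against 9.92 and 9.40 in BL185 (0.76; adjusted p = 0.253).

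Of 17 cholesterol synthesis genes 7 rose (41.2%, against 3.39% of all genes) and 0 fell (median 0.87), with the last enzyme of the pathway, Dhcr7, highest (10.18 and 10.09 against 11.68 and 11.67; 1.54 ± 0.09, SE, n = 2 per line; adjusted p = 2.77e-05). The count depends on the scale: over the whole cholesterol list 7 genes were called after loess, 2 with the values as deposited and 1 with median centring. Lss, lanosterol synthase, rose by 1.12 with 1 probe set opposed. The sterol response element, searched upstream as TCACNCCAC on both strands, was in 1 of 28 promoters of the list (3.6%) and 1.0% of all. In fatty acid metabolism the desaturase Fads2 (1.72) and the binding protein Fabp5 (1.77) rose, and the lipase Lpl (-1.82) and the thioesterase Acot2 (-1.82) fell, out of 49. That is 4.1% in each direction, near the 3.39% and 3.92% of all genes. Glutathione genes rose in 4 of 16, among them Gsta4 (1.65) and Gss (1.37), and the NRF2 targets Hmox1 (-1.39) and Sqstm1 (-1.68) fell. In glycolysis and the hypoxia response 0 of 37 rose and 4 fell (10.8%), including the hexokinase Hk2 (-1.25) and the angiogenic factor Vegfa (-1.27). Of 48 respiratory chain genes, 2 were called higher (4.2%), and both calls were lost with the values as deposited. All 48 had a mean of at least 9, and of all genes at that level 6.02% rose.

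Liver gene lists held calls in both directions. Of 22 liver transcription factors, 1 was called, Hhex (1.02), which lost its call without BL185 replicate 2 or I1 replicate 2. Among 46 hepatocyte genes 4 rose (8.7%) and 2 fell (4.3%), against 3.39% and 3.92% of all genes. Hpx rose from 8.72 and 8.42 to 10.50 and 10.37 (1.86), and the fibrinogen chain Fgb fell from 9.55 and 9.48 to background, at 7.42 and 7.62. The list's median was 0.17 over all members and -0.36 over those with a mean of at least 9. Among progenitor and duct genes 3 of 28 fell (10.7%) and 0 rose. Prom1, the surface marker CD133, read 11.08 and 10.95 in BL185 and 8.56 and 8.43 in I1 (-2.52 ± 0.10, SE, n = 2 per line; adjusted p = 7.03e-06), and Hmga2 (-1.27) and the duct factor Sox9 (-1.08) fell less. Of 22 retinoic acid genes 2 rose and 2 fell (9.1% in each direction), with a median of 0.08. The falls were in the retinaldehyde dehydrogenases Aldh1a3 and Aldh1a1 (-1.02), and the rises in the retinoid-responsive Rarres1 (2.10), from background, and the retinoic acid hydroxylase Cyp26a1. The call of Aldh1a1 was lost without BL185 replicate 1 (-0.96) or I1 replicate 2 (-0.85), and that of Cyp26a1 without BL185 replicate 2 (0.95) or I1 replicate 1 (0.62).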

How the data were processed

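The values deposited by the authors are log2 signals of probe sets; the submitters' processing notes name RMA and affy, and versions and settings are not given in those notes. Controls were left out, and 34945 of the 45101 carried a single gene name in the platform table (34741 of them matched to RefSeq genes of GRCm38.p6). The one with the highest mean over all 6 arrays stood for each of 18193 genes. The 4 arrays were normalized by cyclic loess over all probe sets, and limma 3.58.1 (lmFit, eBayes) in R 4.3.3 compared the lines, with 2 residual and 5.17 prior degrees of freedom. p-values were adjusted by Benjamini-Hochberg over all genes.

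The number of arrays limits the precision, no detection calls were used, and unused columns with sample values numbered 0. Members, 46 gene lists and 6 marker lists were chosen with earlier results of these data known. Of 1653 listed genes, 95 were not matched and were not analysed here. Lists are described by counts and medians, with no set test. Named genes were the 20 largest rises and falls with a higher mean of at least 9, up to 6 called members per list and direction, every member of lists with under 16 genes, and fixed markers. Alternatives were other normalizations, arrays, call rules, variance models, dim-gene filters, probe set rules, an offset of 50, the replicate number as a block, and each array left out. The procedure was tested on simulated data. Python 3.11.15, numpy 2.4.6, pandas 2.3.3 and matplotlib 3.10.9 were used for tables and figures.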

Additional observations from a re-analysis of the deposited data

Results flagged for a closer look

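Probe sets outside the comparison also carried calls. Among 10092 probe sets that name no gene or several, 69 were called higher in I1 and 176 lower by the same rule of adjusted p and fold. Among the 16752 further probe sets of genes that have several, 264 were called higher and 1226 lower, whereas the 9010 probe sets that stood for those genes gave 358 and 432. The further probe sets were dimmer, with a median level of 7.78 against 9.88. Of those with a mean of at least 9, 213 of 4438 were higher and 540 lower. Most called genes with several probe sets had another that moved the same way at an unadjusted p under 0.05 (259 of 358 among rises, 327 of 432 among falls), while 29 and 45 had an opposed one.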

How the results depend on the processing

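Counts of genes higher and lower were 616 and 713, and 400 and 1184 with median centring, 408 and 550 with probe sets averaged per gene, 880 and 1939 with every probe set, 440 and 352 with all 6 arrays, 4145 and 3569 with no minimum change, and 233 and 212 with limma's treat against 1 log2 unit. Leaving out each array in turn gave 545 to 709 rises and 706 to 800 falls. Of the 1329 calls, 381 (210 rises, 171 falls) were made under every alternative except treat. Among 240 called named genes, 126 kept their call under every alternative run per gene, and 0 reversed. An array left out cost 37 of them their call, none with a change above 1.18 in size. Larger changes were lost elsewhere: all 6 arrays cost 57 calls, with changes up to 2.87 in size, and the mean of probe sets 64, up to 2.22. The values as deposited or median centring cost 39, up to 1.32. The DNA replication median (0.99) was 0.80 as deposited, 0.75 with median centring, 0.68 with the mean of probe sets, 0.62 with every probe set, 0.90 with 50 added, and 0.95 to 1.06 with an array left out. The mitosis median (1.79) was 1.58, 1.53, 1.22, 1.28 and 1.70 under the same settings, 1.88 at a mean of at least 9, and 1.73 to 1.79 with an array left out. The integrated stress response median (-1.03) was -1.25 as deposited, -1.30 with median centring, -0.98 with the mean of probe sets, -0.92 with every probe set, and -1.07 to -0.98 with an array left out. Medians that changed sign, with both values beyond 0.05 and the spread between array pairings, were those of the NRF2 list with median centring (-0.06) and, at a mean of at least 9, the hepatocyte (-0.36), imprinted (-0.40) and retinoic acid (-0.24) lists; the cause was not tested. Smaller medians also changed sign, such as those of ER chaperones (0.01 to -0.18) and YAP (0.03 to -0.17) with median centring and of cholangiocyte markers (0.03 to -0.42) at a mean of at least 9. With the replicate number as a block, 618 genes rose and 714 fell; deviations of same-numbered arrays correlated at 0.226, and the labels do not say that a number pairs the arrays. Dim genes, of which 68 rises and 165 falls have a lower mean under 8, have changes of inexact size.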

Other observations

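Further lists held the following calls, against 3.39% of all genes higher and 3.92% lower. Of 25 AP-1 and immediate early genes, 4 rose and 3 fell. The early response factor Egr1 read 11.54 and 11.55 in BL185 and 12.94 and 12.97 in I1 (1.41 ± 0.08, SE; adjusted p = 3.24e-05 by limma), and the AP-1 subunit Fos rose from 10.77 on both BL185 arrays to 12.08 and 12.43, while the factors Atf3 (-1.75), Klf4 (-1.47) and Nr4a1 (-1.08) fell. Of 43 integrins and adhesion molecules, 4 rose, among them the leukocyte-binding Vcam1 (1.51) and the integrin chain Itgb3 (1.18), and 2 fell. Of 18 BCL2 family genes, 2 rose, the death genes Bmf (1.29) and Bok (1.24), and 3 fell, among them the survival gene Bcl2l2 (-1.18). Other probe sets of Bcl2l2 had changes of -0.20 to -0.04. In the lysosome list 1 of 36 rose, the cathepsin Ctsh (1.35), and 3 fell, with the cholesterol exporter Npc1 at -2.03. Falls there numbered between 2 and 7 over the alternatives. Among zinc transporters and metallothioneins 2 of 21 rose, led by Slc39a10 (2.15), and 3 fell. The interferon list (1 rise and 1 fall among 39, the latter in the signalling factor Irf9, -1.43) and the imprinted list (1 rise among 20) were near the shares of all genes. Of the 15 keratins listed, 2 rose: Krt14 and Krt6a (1.78), a keratin of activated epidermis. Krt79, named above among the largest rises, was not in that list.

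Gene families were chosen after their values were seen, and their counts are a description. Of 336 Zfp zinc finger genes, 3 were called higher and 31 lower, with a median change of -0.25, and among the 132 with a mean of at least 9 the counts were 3 and 8, where 5.84% of all genes of that level were lower. Of 14 host genes of small nucleolar RNAs (Snhg), 1 rose and 5 fell, with a median of -0.79. All 3 members of the folliculin complex group (Flcn, Fnip1 and Fnip2) fell, with a median of -1.76. Of 14 carbohydrate sulfotransferases (Chst), 4 rose and 0 fell. Mitochondrial ribosomal proteins (4 rises and 0 falls among 76, all with a mean of at least 9, where 6.02% of genes rose) and cytosolic ones (2 and 1 among 54) were near the shares of all genes.

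Changes were also set in the order of genes along the chromosomes, with medians over 7702 runs of 51 consecutive genes that had a mean of at least 9. These medians ran from -0.507 to 0.435, and 5% of runs lay below -0.193 and 5% above 0.262. The highest run, from Erf to Fam98c, held 6 rises and 0 falls, and the lowest, from Tax1bp1 to Kcmf1, 2 rises and 9 falls. The chromosome that carries Erf, Dgat2 and Ccnd1 had a median change of 0.218 over 600 genes (0.175 to 0.25 in the separate array pairings), with 7.67% of them called higher and 4.17% lower. The medians of the 19 other chromosomes lay between -0.108 and 0.112. With the deposited values, relative to all genes of that level, the values were 0.198 and -0.137 to 0.111. Neighbouring genes share a run, so the runs are not independent, and no test was made.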
